A study of Mus musculus with 6 samples.

Results

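The genes described here are 10 genes of lung epithelial identity: Nkx2-1, Foxa1, Foxa2, Sox9, Sftpb, Sftpc, Sftpa1, Hopx, Epcam and Hmga2. They were chosen by name, as the rows of the count files whose gene name equals one of these symbols, and they are 10 of the 34745 genes in the files. Each symbol matched 1 Ensembl gene in all 6 libraries. RNA was sequenced from 889 cells (889-DTC), a murine lung cancer line whose labels give the strain as C57BL/6 and the tissue as lung. The sgcontrol group (3 libraries) was labelled control, and the study's control vector was lentiCRISPR-EGFP sgRNA1. The sgkiaa1522 group (3 libraries) was labelled KIAA1522-downregulated, and its sgRNAs against mouse kiaa1522 were carried in lentiCRISPRv2. Both groups thus carried a lentiviral vector and Cas9, and transduced cells were kept by puromycin or by sorting. Neither the labels nor the methods say which kiaa1522 sgRNA the sequenced cells carried, whether they were 1 clone, or whether the 3 replicates were separate cultures, so p-values measure only the spread between these libraries. The question put to the 10 genes was which of them these cells expressed and which differed between the groups.

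NKX2-1 is the homeodomain factor that specifies the lung and maintains alveolar type 2 cells, where it works with the forkhead factors FOXA1 and FOXA2 on the surfactant genes. Surfactant proteins B, C and A are made by alveolar type 2 cells, while HOPX marks type 1 cells and some progenitors. In murine lung adenocarcinoma, loss of Nkx2-1 is known to go with gain of HMGA2, a chromatin protein of embryonic tissue, and SOX9 marks the distal tip of the embryonic lung.

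The RefSeq table of gene starts (GRCm38.p6) held 11 entries for 8 of the 10 genes, and none for Sftpc or Sox9. The 250 bases before the start were searched on both strands for CACTTG, the letters of NK2-type sites, which also have the CANNTG form of an E-box. They were also searched for forkhead letters, with TGTTTAC as the core form and TGTTTGC as a variant of it. The form TATTTAC was counted with them, as was the form TATTTGC. The letters CACTTG were found in 1 of the 8 genes (Sftpa1, 2 matches), and 11.6% of 32851 promoters of that length hold it. Forkhead letters were found in 3 genes (Sftpb, Foxa1 and 1 of the 2 starts of Hopx), and 11.9% of all promoters hold them. Both shares count each start as an entry, and in that unit 1 and 3 of the 11 entries held the letters. The windows of Sftpb, Sftpa1 and Foxa1 are shown because they hold such letters, and that of Hmga2, which holds none, because Hmga2 differed between the groups. They lie at chr6:72304360-72304609 (plus strand), chr14:41131538-41131787 (plus strand), chr12:57546112-57546361 (minus strand) and chr10:120476470-120476719 (minus strand). Each reads 5′ to 3′ on the strand of its gene and ends at the base before the RefSeq start, with matches in capitals. The RefSeq start of Foxa1 lies inside the annotated Ensembl gene (chr12:57540628-57546916), so the window of Foxa1 is within that gene.
Sftpb: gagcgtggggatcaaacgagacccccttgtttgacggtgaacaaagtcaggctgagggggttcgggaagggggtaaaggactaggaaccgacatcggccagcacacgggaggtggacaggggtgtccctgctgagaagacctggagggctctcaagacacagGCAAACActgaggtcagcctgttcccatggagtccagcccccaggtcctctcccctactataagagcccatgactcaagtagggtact
Sftpa1: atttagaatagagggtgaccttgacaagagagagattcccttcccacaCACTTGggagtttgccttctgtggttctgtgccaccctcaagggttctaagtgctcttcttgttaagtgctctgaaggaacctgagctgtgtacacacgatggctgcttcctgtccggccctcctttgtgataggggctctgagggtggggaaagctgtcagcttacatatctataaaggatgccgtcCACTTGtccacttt
Foxa1: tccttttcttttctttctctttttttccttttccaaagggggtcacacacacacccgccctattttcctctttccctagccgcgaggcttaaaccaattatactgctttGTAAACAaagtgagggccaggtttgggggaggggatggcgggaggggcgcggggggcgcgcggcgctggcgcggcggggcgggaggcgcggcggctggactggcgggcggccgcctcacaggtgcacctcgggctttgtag
Hmga2: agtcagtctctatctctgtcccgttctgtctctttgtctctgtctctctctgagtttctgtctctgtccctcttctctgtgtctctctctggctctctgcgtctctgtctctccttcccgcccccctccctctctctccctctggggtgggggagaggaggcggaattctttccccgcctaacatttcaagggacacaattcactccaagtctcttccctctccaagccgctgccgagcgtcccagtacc
The match in Sftpb began 88 bases and that in Foxa1 141 bases before the start, and those in Sftpa1 202 and 14 bases before it. Those in Sftpb and Foxa1 lie on the opposite strand, so the capitals show their reverse complement. A match describes the letters only.

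The libraries held between 12220001 and 18609376 counts, the smallest being replicate 1 of sgkiaa1522. At these depths 3 counts, the limit that a count of 0 allows, correspond to between 0.161 and 0.245 CPM (counts scaled per library), counting error only. The targeted gene, listed as C77080, was counted 2214, 2404 and 2064 times in sgcontrol, against 2554, 3726 and 3667 times under the label sgkiaa1522. Its mRNA was therefore higher in the libraries labelled sgkiaa1522 (log2 fold change 0.73, SE 0.0569, adjusted p = 9.1e-05 edgeR quasi-likelihood, Benjamini-Hochberg adjusted, as throughout). The label was kept as a name, and each direction below is that of the libraries labelled sgkiaa1522 over sgcontrol. Of 10046 tested genes, those with more than 500 counts over the 6 libraries, 52.5% had an adjusted p of at most 0.05 (called), 26.3% lower and 26.3% higher. The study also asked for a change of 1 or more in log2 units, up or down, which 7.08% met. In bulk RNA, fewer cells of a type and less RNA per cell cannot be told apart.

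Of the 10 genes, 6 were expressed at a mean of at least 1 TPM (a level per exon length, scaled to the library): Foxa2, Hmga2, Foxa1, Nkx2-1, Sftpb and Sftpc. Sftpa1 and Hopx were present as traces, and Epcam and Sox9 had no count in any library. Among the 5 genes with enough counts for the test, Sftpb was lower and Hmga2 higher in the libraries labelled sgkiaa1522, while Nkx2-1, Foxa1 and Foxa2 were not called. Thus 2 of 5 (40.0%) were called against 52.5% of all tested genes, and none of the 5 reached a log2 fold change of 1 with an adjusted p of at most 0.05. The groups did not overlap in CPM for 2 of the 5, against 61.7% of all tested genes. The median log2 fold change was 0.02 over the 5 and -0.0067 over all tested genes.

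**Figure D1:**
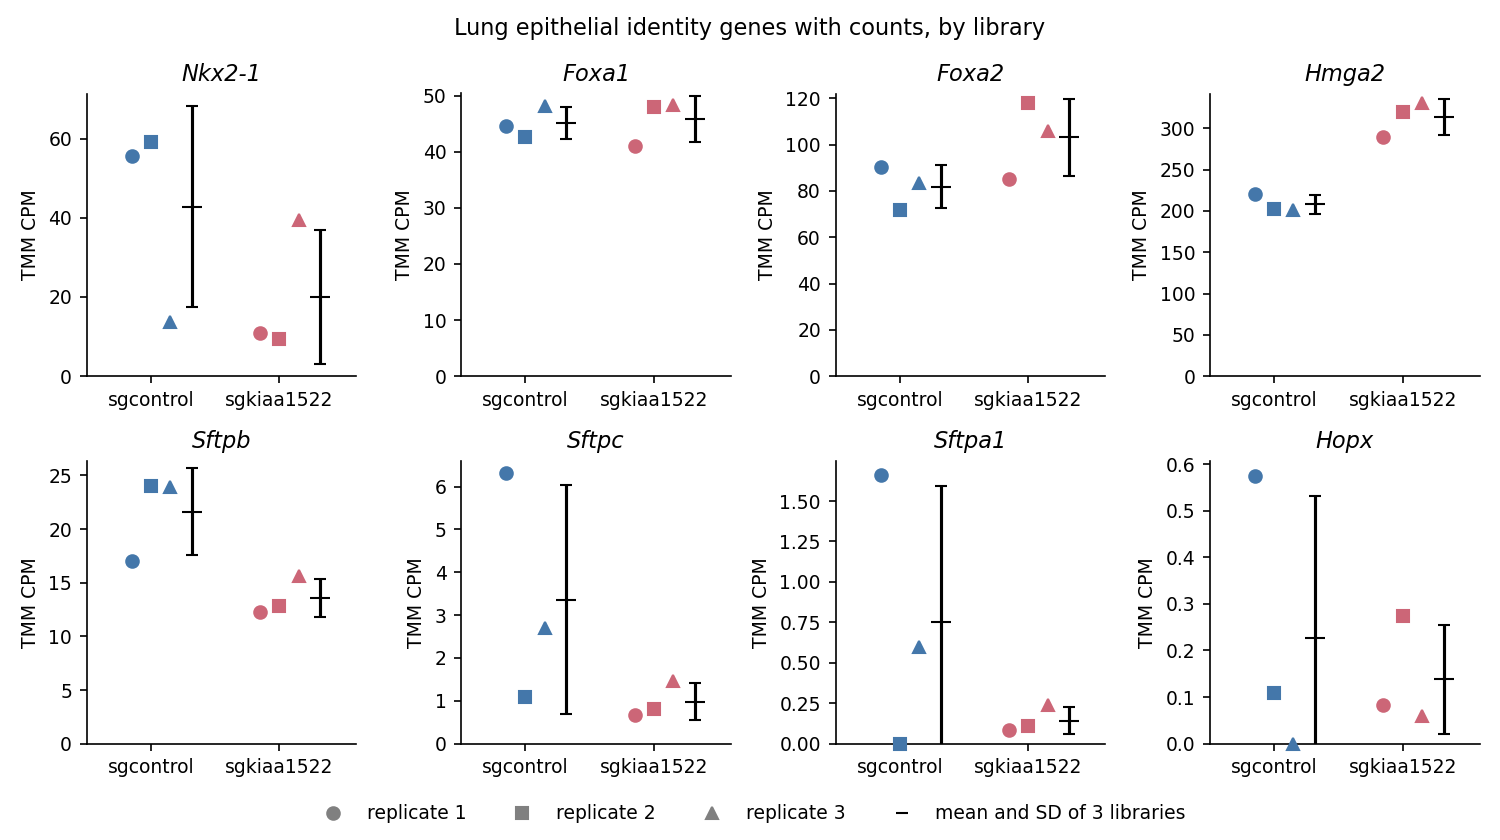
TMM-normalized CPM (y axis, from 0, a separate scale for each gene) of the 8 identity genes with counts in the 3 sgcontrol and 3 sgkiaa1522 libraries. Points are libraries and bars the mean with SD, cut at 0. The groups separate for Hmga2 and Sftpb, and Nkx2-1 varies about 4-fold within each group.

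Nkx2-1 (ENSMUSG00000001496, chr12:56531958-56536908, minus strand) had 970, 1096 and 227 counts in sgcontrol and 132, 174 and 671 in the libraries labelled sgkiaa1522. After TMM scaling these were 55.7, 59.1 and 13.6 CPM against 10.9, 9.49 and 39.5 CPM. Replicate 3 of each group went against the other 2 of its group, and the groups overlapped. The means were 42.8 ± 25.3 and 20.0 ± 17.0 CPM (SD, n = 3 each). The log2 fold change was -1.09 (SE 0.673, 95% interval -2.66 to 0.48, adjusted p = 0.21), and the exact two-sided permutation test of the CPM gave p = 0.2, where 0.1 is the smallest p that 3 libraries against 3 allow. No difference was detectable at this spread, and the interval still includes falls of over 2 on the log2 scale. Without replicate 3 of sgkiaa1522 the log2 fold change was -2.08 (adjusted p = 0.033), and without replicate 3 of sgcontrol it was -1.52 (adjusted p = 0.065). With any other library left out it was smaller in size, between -0.87 and -0.75 (adjusted p between 0.37 and 0.43).

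The spread of Nkx2-1 between replicates was large beside that of all tested genes. Its highest library was 4.34 times its lowest in sgcontrol and 4.16 times in sgkiaa1522. The SD of log2 CPM pooled over the groups was 1.14, which ranked 27 of 10046 tested genes (0.269% of genes were as large), where the median gene had 0.123. In all, 41 genes had an SD of at least 1. They include Zfx, a zinc finger factor, with 1777, 237 and 77 counts in sgcontrol and 1029, 183 and 1598 in sgkiaa1522, named after its values were seen. The other tested members varied less: the SD was 0.0907 for Hmga2, 0.112 for Foxa1, 0.203 for Foxa2 and 0.235 for Sftpb. The nearest profile, looked up after the values were seen, was that of Acadsb, a mitochondrial acyl-CoA dehydrogenase, at a root mean square distance of 0.423 log2 units. Acadsb had 1400, 1282 and 445 counts in sgcontrol and 311, 505 and 1061 in sgkiaa1522, and so was high and low in the same libraries as Nkx2-1, over a smaller range. GENCODE annotates 2 transcripts of Nkx2-1, and its antisense neighbour Gm26973, which shares no exon bases with it, had at most 12 counts in a library.

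**Figure D2:**
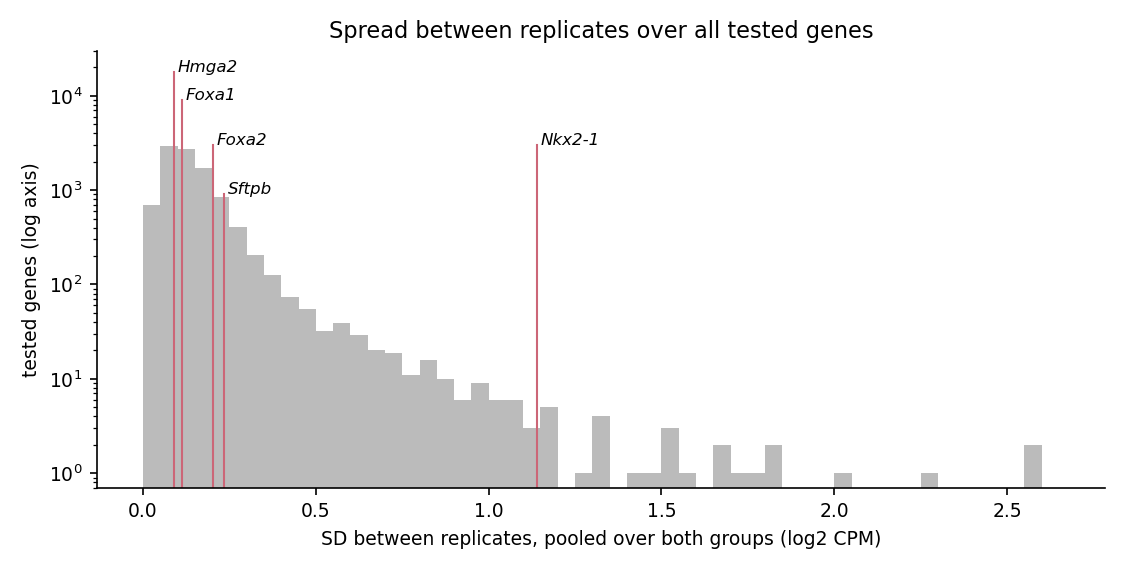
Number of tested genes (y axis, log scale) by the SD of log2 CPM between replicates, pooled over both groups (x axis, bins of 0.05). Lines mark the 5 tested identity genes, of which Nkx2-1 lies at 1.14, far above the median of 0.123, and the other 4 between 0.0907 and 0.235.

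Foxa1 (ENSMUSG00000035451, chr12:57540628-57546916, minus strand), a forkhead pioneer factor, was level. It had 44.5, 42.7 and 48.2 CPM in sgcontrol and 41.1, 48.0 and 48.4 CPM in sgkiaa1522. The groups overlapped almost fully. The log2 fold change was 0.02 (SE 0.0956, 95% interval -0.2 to 0.25, adjusted p = 0.85), so differences of up to about 0.2 log2 units either way lie within the interval. Its sign turned with 3 of the libraries left out singly, and to -0.1 after the median of chromosome 12 was subtracted.

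Foxa2 (ENSMUSG00000037025, chr2:148042877-148046969, minus strand), its paralog, had 90.1, 71.9 and 83.6 CPM in sgcontrol and 85.3, 118 and 106 CPM in sgkiaa1522. Replicates 2 and 3 of sgkiaa1522 lay above all sgcontrol libraries, and replicate 1 lay within them. The log2 fold change was 0.33 (SE 0.132, 95% interval 0.02 to 0.64, adjusted p = 0.069), which misses the threshold. DESeq2 called it (adjusted p = 0.038), and so did the test without replicate 1 of sgkiaa1522 (0.45, adjusted p = 0.019).

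Sox9 (ENSMUSG00000000567, chr11:112782224-112787760, plus strand) had 0 counts in all 6 libraries, which allows at most 0.161 to 0.245 CPM. Of 13 SOX genes listed, 4 were expressed and tested (Sox2, Sox12, Sox13 and Sox21), and none was called. Sox5, under the filter, had 4, 8 and 4 counts in sgcontrol and 26, 38 and 43 in sgkiaa1522 (2.87, adjusted p = 6.1e-05 in a fit on all genes with at least 1 count), and was named after its values were seen. Sox2, a factor of the proximal airway, was the highest of them at 37.1 TPM, with a log2 fold change of 0.10 (adjusted p = 0.30).

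Sftpb (ENSMUSG00000056370, chr6:72304610-72314371, plus strand), which encodes the surfactant protein needed for the lamellar body, was the member that fell. It had 296, 445 and 399 counts in sgcontrol and 149, 235 and 265 in sgkiaa1522, or 17.0, 24.0 and 23.9 CPM against 12.3, 12.8 and 15.6 CPM. All 3 sgcontrol libraries lay above all 3 sgkiaa1522 libraries. The means were 21.6 ± 4.03 and 13.6 ± 1.79 CPM (SD, n = 3 each). The log2 fold change was -0.67 (SE 0.166, 95% interval -1.06 to -0.28, adjusted p = 0.012), while 26.3% of all tested genes were called lower. The exact permutation test gave p = 0.1, the smallest possible. The tested genes with the nearest profiles included D2Wsu81e (distance 0.0387) and Fam188b (0.0747), and 12 genes lay within 0.1.

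Sftpc (ENSMUSG00000022097, chr14:70520949-70524081, minus strand), the surfactant protein most particular to alveolar type 2 cells, had 110, 20 and 45 counts in sgcontrol and 8, 15 and 25 in sgkiaa1522. With 223 counts in all it was under the filter, and the highest library, replicate 1 of sgcontrol, held 110 of them. A fit on all genes with at least 1 count gave a log2 fold change of -1.73 (SE 0.536, adjusted p = 0.025). The groups overlapped, and the call was lost with edgeR's own filter (-1.72, adjusted p = 0.053), without replicate 1 of sgcontrol (-0.9, adjusted p = 0.14) and without replicate 1 of sgkiaa1522 (-1.54, adjusted p = 0.076). The median log2 fold change of tested genes on chromosome 14, where Sftpa1 also lies, was -0.379. The neighbour Bmp1, which shares no exon bases with Sftpc, had 1211, 1343 and 1143 counts in sgcontrol and 550, 719 and 675 in sgkiaa1522. The part of either in the value of Sftpc was not tested.

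Sftpa1 (ENSMUSG00000021789, chr14:41131782-41136452, plus strand), a collectin of the surfactant, had 29, 0 and 10 counts in sgcontrol and 1, 2 and 4 in sgkiaa1522. Its log2 fold change in the same fit was -2.29 (adjusted p = 0.11), -0.95 (adjusted p = 0.56) without replicate 1 of sgcontrol and -2.88 (adjusted p = 0.0057) without replicate 2. Hopx (ENSMUSG00000059325, chr5:77086988-77115121, minus strand) had 10, 2 and 0 counts in sgcontrol and 1, 5 and 1 in sgkiaa1522. Its value of -0.62 (adjusted p = 0.69) turned to 1.25 (adjusted p = 0.52) without replicate 1 of sgcontrol. Hopx shares 27.18% of its exon bases with the antisense gene Hopxos, which had no counts.

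Replicate 1 of sgcontrol was the highest library for each of these 3 low genes. A subset taken after the values were seen was the 20 genes of the alveolar type 2, type 1 and club cell lists with counts under the filter. Replicate 1 of sgcontrol was the highest library for 12 of them. The 3 low genes are among the 20 and among the 12, so this count is not independent of them. The summed level of the 20 was 42.2 CPM in that library, 9.55 and 17.9 CPM in the other sgcontrol libraries, and 9.72, 10.2 and 13.5 CPM in those labelled sgkiaa1522. Ptprc, the pan-leukocyte marker, had 14 counts in that library and between 1 and 6 in the others. The part of these differences in the values of Sftpc, Sftpa1 and Hopx was not tested.

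Epcam (ENSMUSG00000045394, chr17:87635979-87651129, plus strand), an adhesion molecule of simple epithelia used to sort lung epithelial cells, had 0 counts in all 6 libraries. This goes against an epithelial marker usual for the labelled tissue, so other epithelial genes, chosen after this value was seen, were looked up. Keratin 8 (Krt8) stood at 1510 TPM, Krt18 at 3660 TPM and Krt19 at 905 TPM, while Krt7 had at most 3 counts in a library. Vim, the mesenchymal intermediate filament, stood at 2540 TPM. Krt8 was lower in the libraries labelled sgkiaa1522 (-0.40, adjusted p = 0.0046), as was Krt19 (-0.73, adjusted p = 0.0012), and Vim was higher (0.22, adjusted p = 0.012), though not called without replicate 2 of sgkiaa1522 (adjusted p = 0.056). Krt18 differed less (-0.19, adjusted p = 0.05) and was not called without replicate 2 or 3 of either group (adjusted p = 0.14 in each). It also lost its call without replicate 1 of sgkiaa1522 (adjusted p = 0.057) and with RLE factors (adjusted p = 0.055). The same held with edgeR's own filter (adjusted p = 0.061) and on all genes with at least 1 count (adjusted p = 0.062).

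Hmga2 (ENSMUSG00000056758, chr10:120361275-120476469, minus strand) was the member that rose. It had 3855, 3753 and 3349 counts in sgcontrol and 3502, 5862 and 5617 in sgkiaa1522, or 221, 202 and 201 CPM against 289, 320 and 331 CPM. All libraries labelled sgkiaa1522 lay above all sgcontrol libraries, and the gap was several times the spread within either group. The means were 208 ± 11.3 and 313 ± 21.9 CPM (SD, n = 3 each), a fold of 1.5. The log2 fold change was 0.59 (SE 0.0742, 95% interval 0.42 to 0.76, adjusted p = 0.00059), while 26.3% of all tested genes were called higher. The exact permutation test gave p = 0.1. The median log2 fold change of tested genes on chromosome 10 was -0.192, and Hmga2 stood at 0.78 relative to it. Its profile was a common one: 390 genes lay within 0.1, the nearest being Slc20a2, a phosphate transporter (0.0261), Trim36 (0.0292) and Pcf11, a factor of transcript termination (0.0298). Hmga2 shares 2.07% of its exon bases with the antisense gene 1700006J14Rik, which had no counts.

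Levels of different genes were compared as TPM, which divides counts by exon length. Foxa2 (104 ± 21.5 TPM, SD over all 6 libraries) and Hmga2 (103 ± 27.1 TPM) were highest and did not differ beyond their spread. Foxa1 followed at 36.3 ± 3.08 TPM, with every library below the lowest of Hmga2 (75.2 TPM). Nkx2-1 at 29.1 ± 20.9 TPM overlapped both Foxa1 and Sftpb, and the latter stood at 23.5 ± 6.13 TPM. Sftpc stood at 5.53 ± 5.46 TPM, with its highest library at 16.1 TPM just under the lowest of Sftpb at 17.0 TPM. Sftpa1 (0.412 ± 0.579 TPM) and Hopx (0.32 ± 0.369 TPM) lay below 1 and overlapped each other. With the mean transcript length in place of summed exons, Nkx2-1 stood at 16.9 TPM, below Sftpb at 18.4 TPM, and Hmga2 (97.7 TPM) above Foxa2 (86.1 TPM), so these 2 orders depend on the length used. The orders of the means also differed by group, though within the spread: in sgcontrol Nkx2-1 (38.8 ± 23.1 TPM) stood above Foxa1 (34.8 ± 2.16 TPM) and Foxa2 (88.7 ± 11.7 TPM) above Hmga2 (79.0 ± 6.09 TPM), while in sgkiaa1522 Nkx2-1 (19.4 ± 16.7 TPM) stood below Foxa1 (37.7 ± 3.58 TPM) and Foxa2 (119 ± 18.5 TPM) below Hmga2 (127 ± 9.95 TPM). With summed exons, the forkhead factors and Hmga2 stood above the surfactant genes in every library.

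**Figure D3:**
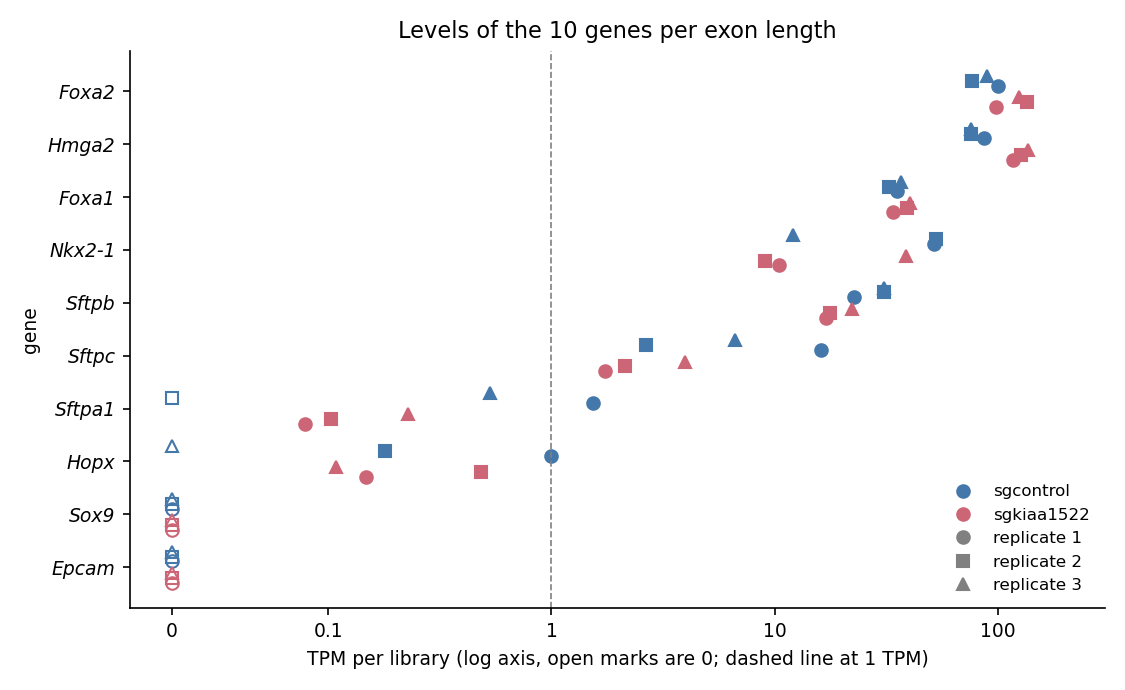
TPM of the 10 identity genes (x axis, log scale, open marks for 0) in each library, genes ordered by mean. Foxa2 and Hmga2 lie between 75.2 and 136 TPM, Nkx2-1 spans 9.02 to 52.6 TPM, and Sox9 and Epcam are at 0 in all 6 libraries.

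The wider lists give the setting of each member. They were written by hand from general knowledge, and their counts are descriptions beside the 52.5% of all tested genes called. Of 27 transcription factors of the lung epithelium, 5 of them members, 16 were expressed and tested. Of these 2 were lower: Gata6, an endodermal GATA factor (-0.78, SE 0.0693, adjusted p = 0.00014), and Irx1 (-0.50, adjusted p = 0.0031). Another 5 were higher, led by the Iroquois genes Irx3 (1.18, SE 0.0747, adjusted p = 4.5e-05), Irx2 (0.98, adjusted p = 7.1e-05) and Irx5 (0.75, adjusted p = 0.00039). Foxp4 (0.35, adjusted p = 0.047) and Etv5 (0.25, adjusted p = 0.025) were the others, and 9 were not called, among them Cebpa (0.00, adjusted p = 0.97) and Id2 (0.02, adjusted p = 0.83). Irx1 and Irx2, both on chromosome 13, thus differed in opposite directions. The count of 5 was 3 without replicate 2 of sgcontrol and without replicates 2 or 3 of sgkiaa1522. Foxp4 lost its call with any 1 library but replicate 1 of sgkiaa1522 left out (adjusted p between 0.059 and 0.13), and Etv5 without replicate 2 or 3 of either group (adjusted p between 0.057 and 0.11). Foxp1 was another factor with a wide spread, at 100 ± 58.5 CPM in sgcontrol and 146 ± 57.3 CPM in sgkiaa1522 (adjusted p = 0.32).

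Of 13 genes for surfactant proteins and their processing, 7 were expressed and 6 tested. With Sftpb, Ctsh, a cathepsin that processes surfactant proteins B and C (51.9 ± 10.6 CPM against 16.2 ± 3.05 CPM, log2 fold change -1.68, adjusted p = 0.00034), and Abca3, the lipid transporter of the lamellar body (-0.64, adjusted p = 0.00017), were lower. Lpcat1, which remodels surfactant phospholipid (0.42, adjusted p = 0.010), and Adgrf5, a receptor that limits surfactant (0.20, adjusted p = 0.041), were higher, and Pcyt1a was not called. With any 1 library but replicate 1 of sgcontrol left out, Adgrf5 lost its call (adjusted p between 0.097 and 0.14). The list's median was -0.36, and its summed level lay between 683 and 739 CPM in sgcontrol and between 627 and 673 CPM in sgkiaa1522. Napsa, an aspartic protease of the same pathway, was a trace with 19, 18 and 21 counts in sgcontrol and 1, 5 and 3 in sgkiaa1522.

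Epcam belongs to a list of 38 adhesion and junction genes, of which 15 were expressed, 19 were traces and 4 had no counts. Of 13 tested, 8 were lower, 1 higher and 4 not called, with a median of -0.32. Cgn, a tight junction scaffold (-1.83, SE 0.122, adjusted p = 5.3e-05), Cdh1, the E-cadherin gene (-1.45, SE 0.0958, adjusted p = 5.1e-05), Jup (-1.02, adjusted p = 0.00071) and Pkp2 (-0.77, adjusted p = 0.00013), both of desmosomal plaques, fell most of those tested. Pkp1, a paralog of Pkp2 named after its values were seen, was expressed but under the filter, and went the other way. It had 45, 33 and 26 counts in sgcontrol and 93, 110 and 99 in sgkiaa1522 (1.71, adjusted p = 8e-05 in the fit on all genes with at least 1 count). Of the other desmosomal genes, Dsp was a trace, and Dsc2 and Dsg2 had no counts. Cldn6, a claudin of embryonic epithelia, was the most abundant with summed exons at 498 TPM and was not called (0.22, adjusted p = 0.072). With the mean transcript length it stood at 318 TPM, below the catenin genes Ctnna1 (843 TPM) and Ctnnb1 (632 TPM) of the list. Esrp1 and Cldn7, usually expressed beside Epcam in epithelia, were traces, and Cldn3 had no counts. Other epithelial genes of the list were expressed: F11r, a tight junction adhesion molecule, at 191 TPM (-0.44, adjusted p = 0.0021), Spint2 at 56.6 TPM (-0.28, adjusted p = 0.027), Esrp2, a splicing factor and paralog of Esrp1, at 16.6 TPM (0.03, adjusted p = 0.88) and Rab25 at 1.44 TPM, under the filter. The count of 8 lower was 6 without replicate 2 of sgcontrol or of sgkiaa1522, and Spint2 lost its call in both (adjusted p = 0.095 and 0.083).

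Hmga2 is a known target of the let-7 microRNAs, whose maturation LIN28 blocks. Of 17 genes of this axis, 11 were expressed and tested, 4 lower, 3 higher and 4 not called, with a median of -0.06. Dicer1, which cuts let-7 precursors (0.77, SE 0.0966, adjusted p = 0.00058), and Hmga1 (0.31, adjusted p = 0.019) were higher along with Hmga2. Arid3a (-0.99, adjusted p = 0.0012), Dis3l2 (-0.48, adjusted p = 0.0043), Arid3b (-0.43, adjusted p = 0.018) and Igf2bp1 (-0.40, adjusted p = 0.0038), another let-7 target, were lower. Without replicate 2 of sgcontrol, Hmga1 (adjusted p = 0.066) and Arid3b (adjusted p = 0.061) lost their calls, as they did without replicate 2 or 3 of sgkiaa1522 (adjusted p between 0.06 and 0.075), and Hmga1 also without replicate 3 of sgcontrol (adjusted p = 0.053). Arid3b lost its call with DESeq2 too (adjusted p = 0.052). Lin28a had no counts, and Lin28b was a trace with between 30 and 60 counts a library.

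Of 9 FOXA and NK2 genes, 4 were tested. Nkx2-3, an NK2 factor of the gut and spleen, was the only one called (-0.74, SE 0.0862, adjusted p = 0.00042), and at 135 TPM it stood above Nkx2-1. Nkx2-2, Nkx2-6 and Nkx2-9 had no counts, and Foxa3 was a trace.

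**Figure D4:**
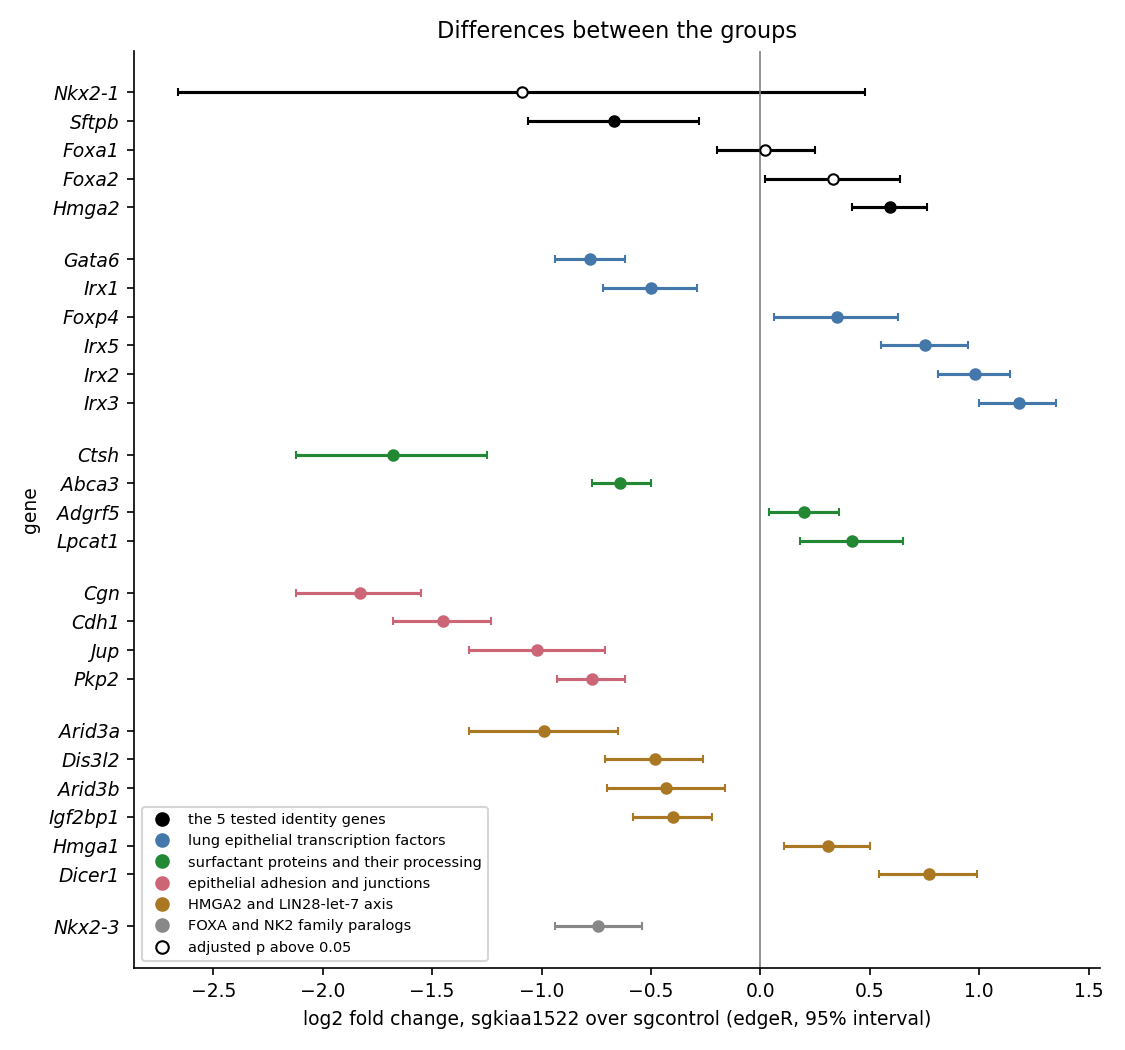
Log2 fold change of the libraries labelled sgkiaa1522 over sgcontrol (x axis) with its 95% interval from edgeR, for the 5 tested identity genes and the named genes of the wider lists (y axis, by list). Filled points have an adjusted p of at most 0.05. Hmga2 (0.59) and Sftpb (-0.67) are filled, and Nkx2-1 has the widest interval, -2.66 to 0.48.

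As a check of the labelled tissue, marker lists of lung and other cell types were read over all 6 libraries. Of 16 alveolar type 2 genes, 8 were expressed, with a summed level of 364 to 383 CPM in sgcontrol and 317 to 327 CPM in sgkiaa1522. The lower sum came with Abca3, a lamellar body lipid transporter (170 against 109 CPM), while Lpcat1 (34.6 against 46.3 CPM) and Etv5 (73.7 against 87.8 CPM) of the same list were higher, and the median log2 fold change over the 5 tested was 0.00. Its defining gene Sftpc stood at 5.53 TPM, Lyz1 was at 0, and Lamp3, Slc34a2, Napsa and Sftpd were traces. Genes under the filter are not part of the median of 0.00. Among them Napsa (-2.51, adjusted p = 0.0016), Slc34a2 (-3.7, adjusted p = 0.02) and Sftpc (-1.73, adjusted p = 0.025) were lower in the fit on all genes with at least 1 count. Sftpa1, Sftpd, Lamp3 and Cldn18 also had negative values there, each with an adjusted p above 0.05, and all of these had few counts. Of 12 alveolar type 1 genes, 7 were expressed (748 to 836 CPM against 899 to 995 CPM), the highest being the water channel Aqp5 at 298 TPM, while Hopx and Pdpn were traces. Aqp5 itself stood at a mean of 325 CPM in sgcontrol and 262 CPM in sgkiaa1522 and was not called (log2 fold change -0.31, adjusted p = 0.22), and the larger sum in sgkiaa1522 came with Emp2 (97.6 against 191 CPM) and Cav2 (262 against 357 CPM). Cav2 (adjusted p = 0.032) lost its call without replicate 2 or 3 of either group (adjusted p between 0.092 and 0.1). The basal list had 1 expressed gene of 7 with Krt5 at 0, and the neuroendocrine list 2 of 7 with Chga at 0.

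Markers of non-epithelial cells also differed between the groups. The fibroblast list (3 of 10 expressed) summed to between 467 and 487 CPM in sgcontrol and between 167 and 198 CPM in sgkiaa1522, nearly all of it Col1a2, with Thy1 at 0 and Dcn, Lum and Pdgfra as traces. The haematopoietic list (2 of 8 expressed) summed to at most 6.31 CPM in sgcontrol and at least 11 CPM in sgkiaa1522, led by Cd68, with Adgre1 and Cd3e at 0 and Ptprc a trace. The endothelial list (1 of 7 expressed) summed to between 3.72 and 5.51 CPM and between 9.42 and 11.8 CPM, led by Vwf, with Emcn at 0. The part of these lists in the differences of Sftpb and Hmga2 was not tested.

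**Figure D5:**
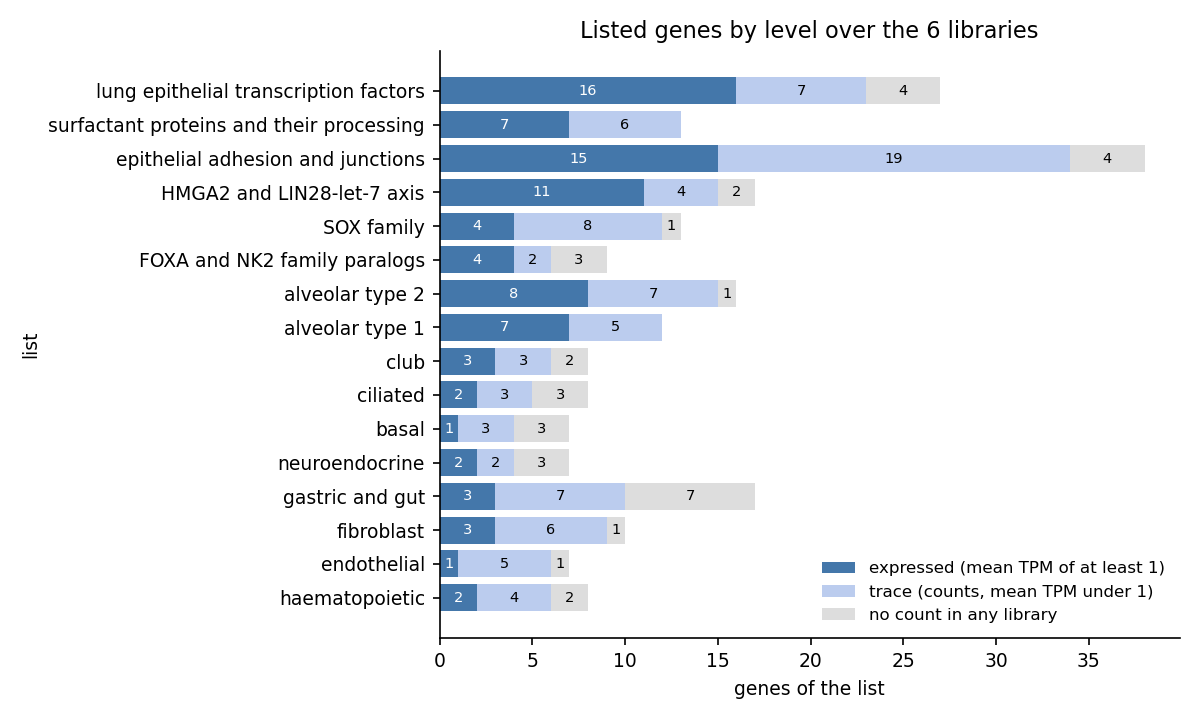
Number of genes of each list (x axis) that were expressed (mean of at least 1 TPM), traces, or without a count over the 6 libraries. The transcription factor list has 16 of 27 expressed, the junction list 15 of 38, and the basal list 1 of 7.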

How the data were processed

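RNA of 6 libraries of 889 cells was measured, 3 per group, with groups from the labels. The authors deposited whole-number counts per Ensembl gene. Adaptors and rRNA reads had been removed with Seqtk, and the reads mapped to GRCm38 with HISAT2 2.0.4 and counted where uniquely mapped with StringTie 1.3.0. The annotation release and strand setting of the counting are not given in the sources used here.

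The counts were tested with edgeR 4.0.16 (quasi-likelihood test, TMM, Benjamini-Hochberg adjustment) in R 4.3.3, on 10046 genes (over 500 counts summed over the libraries, as in the study), with group as the only term. TPM used GENCODE M21 exon lengths, to which 34267 identifiers matched. Expressed means a mean of at least 1 TPM, and a trace has counts but less. Profile distance is the root mean square difference of centred log2 CPM. On simulated data with 100 genes changed by a log2 fold change of 1, the test recovered 98 of them.

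The members and lists were chosen with earlier results of these data known. The genes named are the 10 members, C77080, up to 4 expressed and called genes of each direction in each list, and the 3 nearest profiles of each called member. A few genes under this rule are not reported here. Others named are marked, or describe a list's level, and were chosen after their values were seen. Alternatives were DESeq2 1.42.0, RLE factors, library size, 2 other filters, a replicate block, each library left out, the chromosome median and transcript length. The authors' normalized FPKM values were not used here.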

Additional observations from a re-analysis of the deposited data

How the results depend on the processing

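Sftpb and Hmga2 kept direction and call under the 12 alternatives that refit the test, and direction with the chromosome median removed, which leaves p as it was, at -0.82 to -0.59 and 0.55 to 0.78. Foxa1 reversed without replicate 2 of sgcontrol (-0.02), without replicates 2 (-0.01) or 3 (-0.02) of sgkiaa1522, and with the chromosome median removed (-0.1). Hopx reversed to 1.25 without replicate 1 of sgcontrol. With each library left out, Foxa1 lay between -0.02 and 0.09, Hopx between -1.62 and 1.25, Nkx2-1 lay between -2.08 and -0.75, Sftpc between -2.15 and -0.9 and Foxa2 between 0.22 and 0.45. The members lower numbered 2 with every gene of at least 1 count (Sftpc added), 0 with the limit on the log2 fold change, and 1 to 2 with libraries left out. The members higher numbered 2 with DESeq2 and with every gene of at least 1 count, 0 with that limit, and 1 to 2 with libraries left out. In the lists, the higher transcription factors numbered 3 with the replicate block, 7 with DESeq2, 6 with every gene of at least 1 count and 3 to 6 with libraries left out, and the higher surfactant genes 1 with the block and 1 to 2. The junction genes lower numbered 6 with the block and 6 to 8 with libraries left out. The surfactant genes lower numbered 6 with every gene of at least 1 count, and the junction genes higher 2 with either other filter and 1 to 2 with libraries left out. The causes were not tested, beyond the genes added or libraries lost. Expressed members numbered 5 with the 500-count filter.

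The replicate numbers did not pair the libraries: same-numbered libraries correlated at -0.23, -0.053 and -0.17, and none correlated best with its own number. With the replicate block Sftpb stood at -0.67, and no member's call changed, but Foxp4 (adjusted p = 0.086), Etv5 (0.08), Spint2 (0.081), Cav2 (0.068), Krt18 (0.13), Adgrf5 (0.086), Hmga1 (0.063) and Arid3b (0.057) lost theirs, which leaves 3 lower and 2 higher genes in the let-7 list. Of 22 other list genes that the naming rule takes, 18 kept their call throughout and none reversed. Depth limits Sftpc, Sftpa1 and Hopx, with 223, 46 and 19 counts in all.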

Other observations

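Some genes of other lineages also differed between the groups. Cdx2, the intestinal homeodomain factor, was expressed at 62.6 TPM and was lower in the libraries labelled sgkiaa1522 (69.2 ± 9.21 CPM against 38.6 ± 0.887 CPM, SD, n = 3 each, log2 fold change -0.84, adjusted p = 0.00064 by edgeR). The gut genes Lgals4, a galectin (1.76, adjusted p = 0.00012), and Cdh17, the liver-intestine cadherin (1.00, adjusted p = 0.0017), were higher. The other 14 of the 17 gastric and gut genes were traces or had no counts, among them Hnf4a, a trace, and Gkn1, Tff1 and Muc5ac, at 0. Col1a2, a fibrillar collagen gene, was lower (424 ± 8.11 CPM against 154 ± 9.91 CPM, -1.46, adjusted p = 1.5e-05), and so was Pdgfrb (-0.72, adjusted p = 0.0086).

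Among lung genes outside the members, Clic5, a chloride channel family protein of alveolar type 1 cells, was lower (-2.75, adjusted p = 0.00033), while Emp2 (0.97, adjusted p = 2.7e-05) and Cav2 (0.45, adjusted p = 0.032) of the same list were higher. In the club cell list, the mucin gene Muc5b was lower (-1.01, adjusted p = 0.00061) and Aldh1a1 higher (0.40, adjusted p = 0.016). Scgb1a1, the secretoglobin of club cells, was under the filter with 293, 31 and 42 counts in sgcontrol and 21, 28 and 75 in sgkiaa1522, so that 1 library held most of its counts. Cd68, a lysosomal protein usual in macrophages, had 21, 23 and 19 counts in sgcontrol and 122, 235 and 186 in sgkiaa1522 (3.23, adjusted p = 2e-05), and Vwf was higher by 1.59 (adjusted p = 0.00052). The ciliated list had 2 of 8 genes expressed and none tested.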
